A study of Mus musculus with 12 samples.

Results

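Messenger RNA levels of 9 receptor subunits for neurotrophic factors and of 1 such factor, Bdnf, were followed in primary cultures of mouse motoneurons. The 10 genes, Bdnf, Ntrk2, Ntrk3, Ngfr, Gfra1, Gfra2, Ret, Cntfr, Lifr and Il6st, were found by gene symbol among the 39174 gene identifiers of the deposited tables, 1 row each, and all 10 passed the filter on low values that left 15114 genes for testing. The cultures came from FVB mice that all carried the human SMN2 transgene. SMA cultures (Smn-/-;SMN2) had the mouse Smn gene disrupted and modelled spinal muscular atrophy, and control cultures (Smn+/+;SMN2) kept it intact. Each genotype was exposed to 0.5 µM R-Roscovitine, a small molecule that blocks cyclin-dependent kinases and slows the closing of presynaptic calcium channels, or left untreated. The 4 groups were thus SMA with R-Roscovitine, untreated SMA, control with R-Roscovitine and untreated control, with 3 libraries numbered 1 to 3 in each. Whether libraries with the same label stem from separate cultures is not stated, and p-values measure only the spread between libraries. The labels also leave out how long R-Roscovitine was present and which neurotrophic factors the medium held.

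Motoneurons depend on target-derived and glia-derived factors that act through 3 receptor systems. Neurotrophins such as BDNF signal through Trk receptor tyrosine kinases and through the shared p75 receptor, the product of Ngfr. Ligands of the GDNF family bind a GFR alpha subunit anchored in the membrane, which engages the kinase RET, and CNTF and LIF signal through LIFR and gp130 to JAK kinases and STAT3. The culture protocol cited in the labels enriches motoneurons with an antibody to p75, so Ngfr encodes the antigen of that selection.

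The abundance of the 10 genes was compared in FPKM, fragments normalised for transcript length and sequencing depth, which allows levels of different genes to be set side by side. Averaged over all 12 libraries, Il6st at 35.0 ± 7.85 FPKM and Ntrk2 at 30.3 ± 9.56 FPKM led (SD, n = 12), at the 80.2nd and 77.3rd percentile of the tested genes. Il6st was above Ntrk2 in 6 of 12 libraries, so these neighbours did not differ beyond their spread. Cntfr averaged 15.5 ± 4.09 FPKM, Gfra2 13.6 ± 3.32 FPKM and Ntrk3 11.2 ± 4.23 FPKM, and neighbours in this trio kept their order in only 7 and 8 of 12 libraries. Ntrk2 was above Cntfr in all 12. Gfra1 followed at 6.87 ± 1.76 FPKM, Lifr at 5.43 ± 1.65 FPKM and Bdnf at 4.15 ± 0.473 FPKM. Ngfr at 2.39 ± 1.21 FPKM and Ret at 2.39 ± 0.761 FPKM were lowest, at the 15.9th percentile, and Ngfr was above Ret in 3 of 12 libraries.

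Each FPKM joins all annotated forms of a gene. For Ntrk2, Ntrk3 and Lifr these include forms known to lack the signalling domain, and for Il6st the annotation lists 8 coding transcripts of 66 to 917 codons. Full-length TrkB and TrkC carry the kinase, and the truncated forms end in a short alternative tail. A truncated, soluble form of the LIF receptor is known in the mouse. The ends of the coding sequences of Ntrk2, Ntrk3 and Lifr are shown because they differ between the forms. They are the last 36 coding bases, 5′ to 3′ on the strand of the gene, with the stop codon in capitals, from the GENCODE M21 transcripts on GRCm38. The full-length Ntrk2 form has 821 codons and its last coding exon is chr13:59128168-59128350 (+), and the truncated form has 476 codons and ends in chr13:58932023-58932057 (+). For Ntrk3 the forms have 825 and 612 codons and end in chr7:78192562-78192744 (-) and chr7:78302632-78302747 (-), and for Lifr they have 1092 and 719 codons and end in chr15:7190546-7191166 (+) and chr15:7185067-7185071 (+). The last coding exon of the short Lifr form is only a few bases long, so most of its printed end lies in the exon before.
Ntrk2-201, full length: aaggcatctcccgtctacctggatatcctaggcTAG
Ntrk2-202, truncated: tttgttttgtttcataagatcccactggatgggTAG
Ntrk3-201, full length: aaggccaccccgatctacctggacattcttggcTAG
Ntrk3-202, truncated: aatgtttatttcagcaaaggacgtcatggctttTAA
Lifr-201, membrane form: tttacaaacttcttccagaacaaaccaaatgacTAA
Lifr-202, short form: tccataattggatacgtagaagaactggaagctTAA
The gene-level values cannot tell such forms apart.

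The labels were checked with Smn1, the disrupted gene. Smn1 averaged 6.85 ± 1.20 FPKM in SMA and 41.0 ± 6.86 FPKM in control libraries (SD, n = 6 each), with no overlap. SMA libraries still had 5.04 to 8.58 FPKM of Smn1, and the source of this remaining signal was not tested. An approximate depth read from the smallest steps of low values was 19.5 to 25.2 M reads in SMA and 23.3 to 28.7 M reads in control libraries. Of 8 motoneuron markers in the tables, 6 stayed under 1 FPKM in every library, among them Chat, the acetylcholine-synthesising enzyme, with at most 0.0605 FPKM, and Mnx1, a motoneuron transcription factor, listed at 0 throughout. The defining markers of motoneurons were thus absent or nearly so, while summed pan-neuronal markers reached 637 to 1181 FPKM. In bulk cultures, fewer cells of a type and less RNA per cell cannot be told apart.

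**Figure D1:**
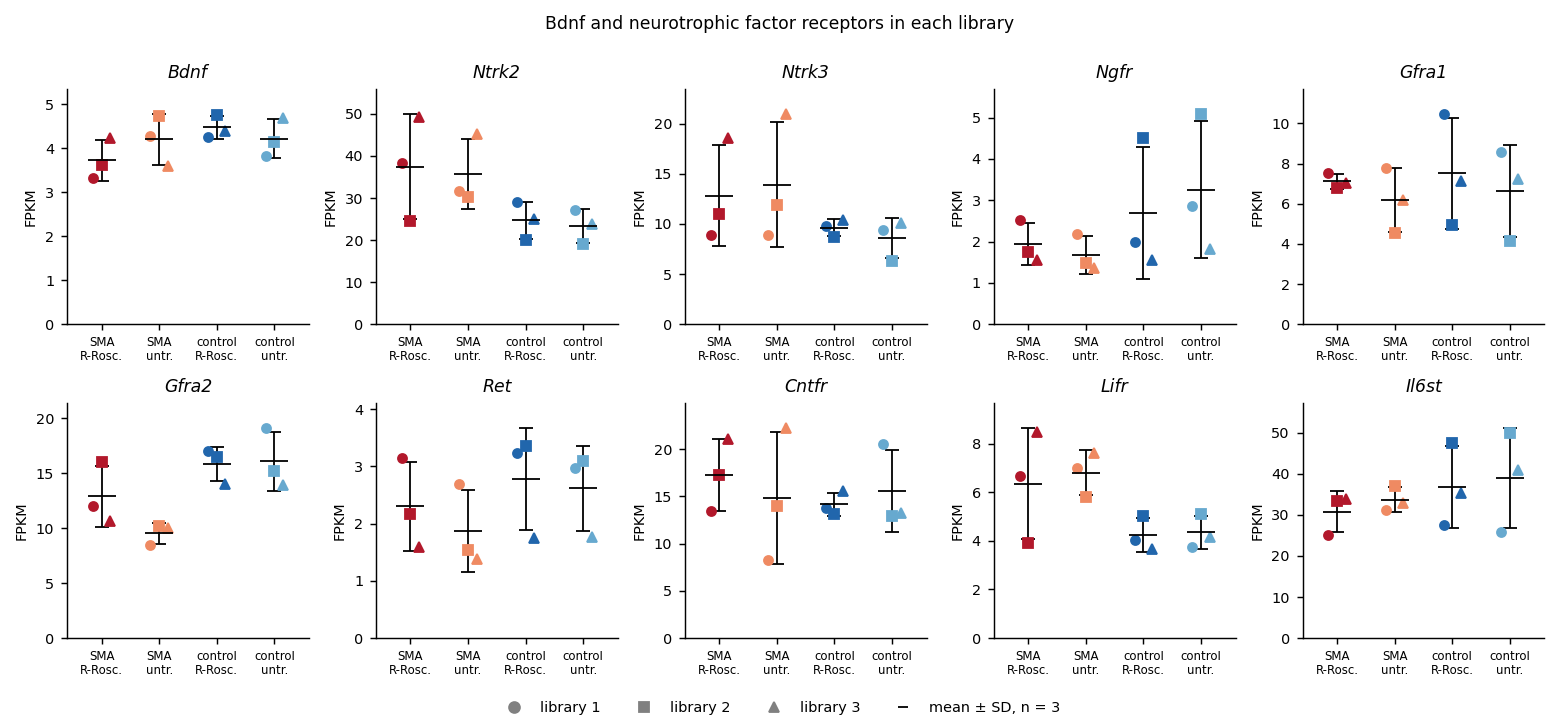
FPKM of each of the 10 genes in the 12 libraries, by group, with library number as the symbol and the mean ± SD of 3 libraries as bars. Ntrk2 and Lifr lay above, and Gfra2 below, the untreated control libraries in all 3 untreated SMA libraries, while the Bdnf values of all groups lay between 3.33 and 4.76 FPKM.

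Among the neurotrophin receptors, Ntrk2 and Ntrk3 averaged higher and Ngfr lower in SMA than in control libraries, without treatment and with it, and none of these differences passed the test. Ntrk2 (ENSMUSG00000055254, chr13:58806596-59133970, +) encodes TrkB, the receptor of BDNF and neurotrophin 4. It stood at 31.6, 30.2 and 45.3 FPKM in untreated SMA libraries 1 to 3, against 27.1, 19.0 and 23.8 FPKM in untreated control libraries. Under R-Roscovitine, SMA libraries were at 38.4, 24.5 and 49.4 FPKM and control libraries at 29.0, 20.1 and 25.1 FPKM. The untreated groups did not overlap, and with R-Roscovitine SMA library 2 fell within the control range. The untreated difference was 0.63 ± 0.24 on the scale of log2(scaled FPKM + 1), which is used for all differences (SE; limma, Benjamini-Hochberg adjusted p = 0.286), and the treated one 0.56 ± 0.24 (adjusted p = 0.364). The treated difference was 0.34 without treated SMA library 3 and 0.84 without treated SMA library 2. Averaged over treatment, Ntrk2 was at 0.59 ± 0.17, SMA minus control (limma adjusted p = 0.0629), with a 95% interval of 0.23 to 0.95. That comparison, here and for the genes below, counts treated and untreated libraries of the same genotype and number as independent. Over the alternatives that kept all 12 libraries, the limma adjusted p of Ntrk2 was 0.00907 to 0.244.

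Ntrk3 (ENSMUSG00000059146, chr7:78192362-78578408, -) encodes TrkC, the receptor of neurotrophin 3, which marks proprioceptive sensory neurons and is also made by motoneurons. It had 8.94, 11.9 and 20.9 FPKM in untreated SMA libraries 1 to 3, against 9.42, 6.28 and 10.1 FPKM in untreated control libraries. In treated cultures the values were 8.93, 11.0 and 18.5 FPKM in SMA and 9.76, 8.69 and 10.4 FPKM in control libraries. SMA library 3 was the high one under both conditions, and SMA library 1 lay inside the control range. The difference was 0.62 ± 0.28 untreated, 0.34 ± 0.28 treated and 0.48 ± 0.20 averaged (log2, SE), with limma adjusted p-values of 0.354, 0.639 and 0.174. Without SMA library 3 of the group concerned it was 0.30 untreated and 0.06 treated. The averaged difference was 0.32 without untreated SMA library 3 and 0.18 without SMA library 3 in both treatments.

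Ngfr (ENSMUSG00000000120, chr11:95568818-95587735, -), which encodes p75, the receptor shared by all neurotrophins and the antigen of the antibody selection, was low in every library. It had 2.20, 1.48 and 1.36 FPKM in untreated SMA libraries, against 2.86, 5.08 and 1.83 FPKM in untreated control libraries. Treated SMA libraries had 2.52, 1.76 and 1.55 FPKM, and treated control libraries 1.99, 4.52 and 1.57 FPKM. Control library 2 was highest under both conditions, and the groups overlapped. The averaged difference was -0.41 ± 0.22 (log2, SE; limma adjusted p = 0.290), and -0.24 without treated and -0.26 without untreated control library 2.

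Bdnf (ENSMUSG00000048482, chr2:109674700-109727007, +) is transcribed from several promoters that respond to neuronal activity, all leading to the same mature protein. It had the smallest standard errors of the 10 genes. Untreated SMA libraries had 4.27, 4.73 and 3.59 FPKM, and untreated control libraries 3.83, 4.14 and 4.68 FPKM. The difference was 0.03 ± 0.14 (log2, SE; limma adjusted p = 0.953), and its 95% interval of -0.27 to 0.33 bounds a change in either direction at about 1.25-fold upward and 0.827-fold downward on that scale. Treated SMA libraries had 3.33, 3.61 and 4.24 FPKM of Bdnf, and treated control libraries 4.26, 4.76 and 4.39 FPKM. Here all SMA values lay just below all control values as deposited. After scaling the groups overlapped, with up to 4.24 in SMA libraries and from 4.22 in control libraries. The difference of -0.20 ± 0.14 did not pass (limma adjusted p = 0.573).

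Of the receptors for the GDNF family, Gfra2 averaged lower in SMA cultures, while Gfra1 and Ret showed no difference that passed. In the main fit the Gfra2 difference passed only averaged over treatment, a call that was lost with pairs of libraries as a random effect. Gfra2 (ENSMUSG00000022103, chr14:70890130-70979838, +) encodes GFR alpha 2, the preferred receptor of neurturin. It had 8.45, 10.1 and 9.97 FPKM in untreated SMA libraries, against 19.1, 15.2 and 14.0 FPKM in untreated control libraries. These groups were well separated, with 9.52 ± 0.936 FPKM in SMA and 16.1 ± 2.68 FPKM in control libraries (SD, n = 3 each). With R-Roscovitine, SMA libraries had 12.0, 16.0 and 10.7 FPKM and control libraries 17.0, 16.5 and 14.0 FPKM, and SMA library 2 reached into the control range. The difference was -0.65 ± 0.16 untreated (log2, SE; limma adjusted p = 0.214) and -0.28 ± 0.16 treated (adjusted p = 0.493), the treated value being -0.42 without treated SMA library 2 and -0.16 without treated SMA library 3. Averaged over treatment it was -0.46 ± 0.11, or 0.725-fold with a 95% interval of 0.613 to 0.858 on that scale, and passed the threshold (limma adjusted p = 0.0391).

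The Gfra2 call in the averaged comparison counts the treated and untreated library of the same genotype and number as independent, although such libraries deviated together. With these pairs as a random effect the adjusted p was 0.111, and with 1 mean per pair it was 0.195 (limma), so the call was lost in both. Leaving out 1 library at a time, the difference stayed between -0.54 and -0.41 and the call was kept in 3 of 12 cases, without untreated control library 3 (adjusted p = 0.0418), treated control library 3 (0.0407) or treated SMA library 2 (0.0116). In the other 9 cases, which are all remaining libraries, the adjusted p was between 0.0570 and 0.111.

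Gfra1 (ENSMUSG00000025089, chr19:58235604-58455909, -) encodes GFR alpha 1, the GDNF receptor. Untreated SMA libraries had 7.76, 4.57 and 6.21 FPKM, and untreated control libraries 8.58, 4.13 and 7.24 FPKM. Treated SMA libraries had 7.54, 6.81 and 7.03 FPKM, and treated control libraries 10.5, 4.94 and 7.16 FPKM. The groups overlapped fully, and the averaged difference was -0.02 ± 0.18 (log2, SE; limma adjusted p = 0.970; 95% interval -0.41 to 0.38). The gene overlaps Gm16277 on the opposite strand, which was listed at 0.650 to 8.86 FPKM. The strand setting of the quantification is not given in the sources used here, so reads of these overlapping genes may have been shared and the Gfra1 level is uncertain.

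Ret (ENSMUSG00000030110, chr6:118151748-118197744, -), the signalling kinase of the GDNF family receptors, was present at low levels. It had 2.69, 1.53 and 1.38 FPKM in untreated SMA libraries, against 2.98, 3.10 and 1.77 FPKM in untreated control libraries. In treated cultures it had 3.14, 2.17 and 1.60 FPKM in SMA and 3.23, 3.35 and 1.75 FPKM in control libraries. Library 3 was the lowest of each group, and the groups overlapped. The averaged difference was -0.24 ± 0.18 (log2, SE; limma adjusted p = 0.452).

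In the CNTF and LIF receptor system, Lifr averaged higher in SMA cultures, while the groups overlapped for the ligand-binding subunit Cntfr and the shared subunit Il6st. Lifr (ENSMUSG00000054263, chr15:7129559-7197489, +) encodes the LIF receptor, which pairs with gp130. It had 6.98, 5.79 and 7.63 FPKM in untreated SMA libraries, against 3.77, 5.12 and 4.15 FPKM in untreated control libraries. With R-Roscovitine it had 6.66, 3.92 and 8.47 FPKM in SMA and 4.02, 5.03 and 3.67 FPKM in control libraries. The untreated groups did not overlap, and treated SMA library 2 fell within the control range. The difference was 0.58 ± 0.22 untreated, 0.46 ± 0.22 treated and 0.52 ± 0.16 averaged (log2, SE), with limma adjusted p-values of 0.288, 0.410 and 0.0779, so it did not pass. The averaged value counts paired libraries as independent. Over the alternatives that kept all 12 libraries, its limma adjusted p was 0.0417 to 0.268. The treated difference was 0.25 without treated SMA library 3 and 0.73 without treated SMA library 2.

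Cntfr (ENSMUSG00000028444, chr4:41657498-41697089, -) encodes the CNTF-binding subunit, which has no signalling domain of its own. Untreated SMA libraries had 8.29, 13.9 and 22.2 FPKM, and untreated control libraries 20.5, 13.0 and 13.2 FPKM. Treated SMA libraries had 13.5, 17.3 and 21.1 FPKM, and treated control libraries 13.8, 13.1 and 15.6 FPKM. The lowest and the highest of all 12 values were both in untreated SMA libraries. The averaged difference was 0.09 ± 0.19 (log2, SE; limma adjusted p = 0.829).

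Il6st (ENSMUSG00000021756, chr13:112464070-112510086, +) encodes gp130, the signal transducer shared by the whole cytokine family. It had 31.1, 37.0 and 32.8 FPKM in untreated SMA libraries, against 25.8, 49.9 and 40.9 FPKM in untreated control libraries. Treated SMA libraries had 25.1, 33.4 and 33.9 FPKM, and treated control libraries 27.6, 47.4 and 35.2 FPKM. Control library 2 was highest under both conditions, and the groups overlapped. The averaged difference was -0.16 ± 0.17 (log2, SE; limma adjusted p = 0.603). Ntrk2 and Il6st lie on the chromosome of Smn1, 41.0 and 12.3 Mb from it.

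**Figure D2:**
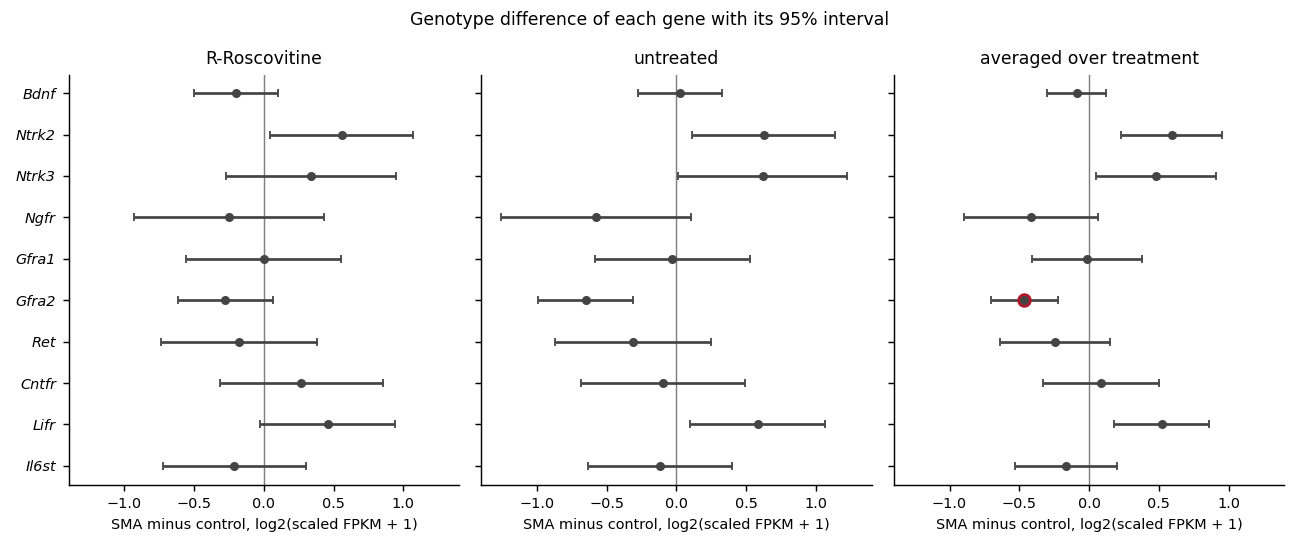
SMA minus control difference of each gene on the log2(scaled FPKM + 1) scale with its 95% limma interval, with R-Roscovitine, untreated and averaged over treatment. The red ring marks Gfra2 averaged over treatment, the difference with an adjusted p under 0.05.

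Set against all tested genes, the shares of the 10 genes are as follows. By limma, 0 of the 10 passed an adjusted p of 0.05 in the untreated genotype comparison, where 0.00662% of all genes did, that is Smn1 itself. At an unadjusted p under 0.05 there were 4 of 10, Gfra2, Ntrk2, Lifr and Ntrk3, where 14% of all genes passed. In the treated genotype comparison, 0 of the 10 passed with adjustment, against 0.00662% of all genes, and 1, Ntrk2, without it, against 12.9%. Averaged over treatment 1 of 10 passed with adjustment, where 4.42% of all genes did, 2.79% as higher and 1.63% as lower in SMA, and 4 of 10 without it, where 23% did. Untreated groups did not overlap for Lifr and Ntrk2, higher in SMA, a state shared by 7.83% of all genes. They did not overlap for Gfra2, lower in SMA, as for 12.4% of all genes. Treated groups did not overlap for Bdnf, lower in SMA, as for 8.84% of all genes. These states were read from unscaled FPKM, and on scaled values they held for Lifr, Ntrk2 and Gfra2 and not for Bdnf. The median difference of the 10 genes averaged over treatment was -0.05, against -0.01 for all tested genes. Without treated SMA library 2 the averaged comparison called Ntrk2 (limma adjusted p = 0.00951) and Lifr (0.0106) as well. Ntrk2 and Lifr were not called on leaving out any other single library. Calls over all genes moved too, with 6 to 1344 on leaving out 1 library at a time, against 668 with all 12 libraries. These fits count treated and untreated libraries of the same genotype and number as independent.

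R-Roscovitine changed none of the 10 genes past the threshold in either genotype. By limma, 0 of the 10 and 0% of all genes passed with adjustment in SMA cultures, and the same was found in control cultures. At an unadjusted p under 0.05 there was 1 of 10 in SMA cultures, where 2.49% of all genes passed, and 0 of 10 in control cultures, where 1.36% did. The 1 gene was Gfra2. It had 12.0, 16.0 and 10.7 FPKM in SMA cultures with R-Roscovitine, against 8.45, 10.1 and 9.97 FPKM in untreated SMA cultures. All treated values were above all untreated values, a state shared by 6.15% of all genes, and the difference was 0.39 ± 0.16 (log2, SE; 95% interval 0.04 to 0.73; limma adjusted p = 0.999). In control cultures Gfra2 had 17.0, 16.5 and 14.0 FPKM with R-Roscovitine, against 19.1, 15.2 and 14.0 FPKM untreated, a difference of 0.01 ± 0.16. The difference between these responses, the interaction, was 0.38 ± 0.22 (limma adjusted p = 1) with a 95% interval of -0.11 to 0.86.

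The intervals of the other 9 treatment responses all included 0, and they do not show that R-Roscovitine left these genes unaltered. These intervals, and that of Gfra2, come from the fit that did not use the pairing of treated and untreated libraries by number. Their width thus includes differences between pairs, and a block on the pairs changed no call. In SMA cultures the responses ranged from -0.14 for Bdnf to 0.39 for Gfra2, and in control cultures from -0.20 for Ngfr to 0.19 for Ntrk3 (log2). Their standard errors were 0.14 to 0.31. The interaction called 0 of the 10 and 0% of all genes by limma, and 0 of the 10 had an unadjusted p under 0.05, where 2.05% of all genes did.

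**Figure D3:**
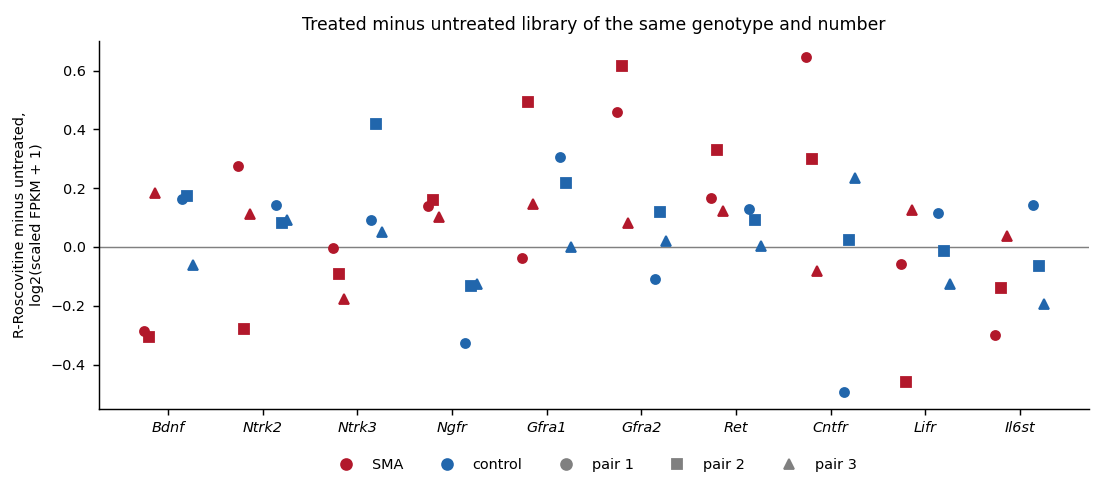
Treated minus untreated difference of each gene on the log2(scaled FPKM + 1) scale for each pair of libraries of the same genotype and number, SMA left and control right. All 3 SMA pairs are above 0 for Gfra2, Ngfr and Ret and below 0 for Ntrk3. All 3 control pairs are above 0 for Ntrk2, Ntrk3, Gfra1 and Ret and below 0 for Ngfr. Control pair 3 is barely above 0 for Gfra1 (0.0013) and Ret (0.0037), and its unscaled FPKM of both genes are lower with treatment. The share of all tested genes whose 3 pairs have the same sign is not given, so these signs are not read as responses.

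The rest of the pathway was read through 6 lists of ligands, receptors and signalling genes around these receptors. Of 108 listed genes 107 were in the tables and 99 were tested. The averaged genotype comparison called 3 of them by limma, Vgf, Dusp4 and Bex1, all lower in SMA, and the other comparisons called 0. Over all genes, 4.42% were called in the averaged comparison. The 3 calls were lost with pairs as a random effect, with limma adjusted p-values of 0.0592 for Vgf, 0.0950 for Dusp4 and 0.0955 for Bex1. Leaving out 1 library at a time, Vgf was still called in 6 of 12 cases and Dusp4 and Bex1 in 2 of 12 each.

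Transcriptional targets of neurotrophin and ERK signalling were the list with the lowest median. All 24 were tested, 21 had a negative averaged difference, and the median was -0.45, against -0.01 for all genes. Among pan-neuronal markers 9 of 9 were negative too, with a median of -0.30, and among interneuron markers 7 of 8, with a median of -0.46. Their part in the values of the targets was not tested. The 2 called were Vgf, a secreted neuropeptide precursor induced by neurotrophins, and Dusp4, a phosphatase that switches off ERK. Untreated SMA libraries averaged 15.2 ± 4.65 FPKM of Vgf and untreated control libraries 35.8 ± 7.47 FPKM, and with treatment the means were 24.8 ± 13.3 FPKM in SMA libraries and 39.5 ± 2.75 FPKM in control libraries (SD, n = 3 each). Its averaged difference was -0.96 ± 0.20 (log2, SE; limma adjusted p = 0.0270). Dusp4 averaged 5.25 ± 1.82 FPKM in untreated SMA libraries, against 8.38 ± 0.753 FPKM in the untreated controls, with an averaged difference of -0.55 ± 0.13 (limma adjusted p = 0.0389). The lowest of the list, Fos at -1.85 and Npas4 at -1.58, both activity-induced transcription factors, did not pass (limma adjusted p = 0.0799 and 0.0584). Untreated SMA libraries had 9.26 ± 5.70 FPKM of Fos and untreated controls 47.2 ± 37.1 FPKM (SD, n = 3 each), so its control values varied widely. At the upper end were Etv1 at 0.27 and Spred1 at 0.22.

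Of the ligands 10 of 15 were tested and 0 called, with a median of -0.10. Artn, which encodes artemin, was at -1.07 and Lif at -0.75, and the upper end was held by Ntf3, neurotrophin 3, at 0.26 and Ctf1, cardiotrophin 1, at 0.08. The 5 ligands not tested, Ntf5, Pspn, Il6, Il11 and Osm, had at most 0.458 FPKM. Of the other receptors and co-receptors 11 of 14 were tested and 0 called. The extremes were Gfra4, the persephin receptor, at -0.41 and Rtn4r, the Nogo receptor, at -0.33, and Osmr, the oncostatin M receptor, at 0.47 and Sorcs1, a sorting receptor, at 0.26. Gfra3, the artemin receptor, reached at most 0.458 FPKM.

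Adaptors and kinases downstream of the receptor tyrosine kinases were all 33 tested and 0 called, with a median of -0.06. Pik3cb, a PI3 kinase subunit, was at -0.40, Akt1 at -0.31 and Frs2, the adaptor docking at Trk receptors, at 0.15. Of 8 p75 adaptors tested, Bex1 was called, with 130 ± 42.4 FPKM in untreated SMA libraries, against 245 ± 34.7 FPKM in the untreated controls (SD, n = 3 each), and an averaged difference of -0.70 ± 0.17 (limma adjusted p = 0.0399). Bex1 interacts with the intracellular domain of p75. The lowest uncalled p75 adaptor was Ripk2 at -0.42, and the highest were Traf6 at 0.18 and Irak1 at 0.17. JAK and STAT genes of the gp130 receptors were all 13 tested and 0 called, with a median of -0.01. Cish was at -0.53 and Bcl3 at -0.32, Socs3, the feedback inhibitor of gp130, was at 0.48, and Stat3 was at 0.10.

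**Figure D4:**
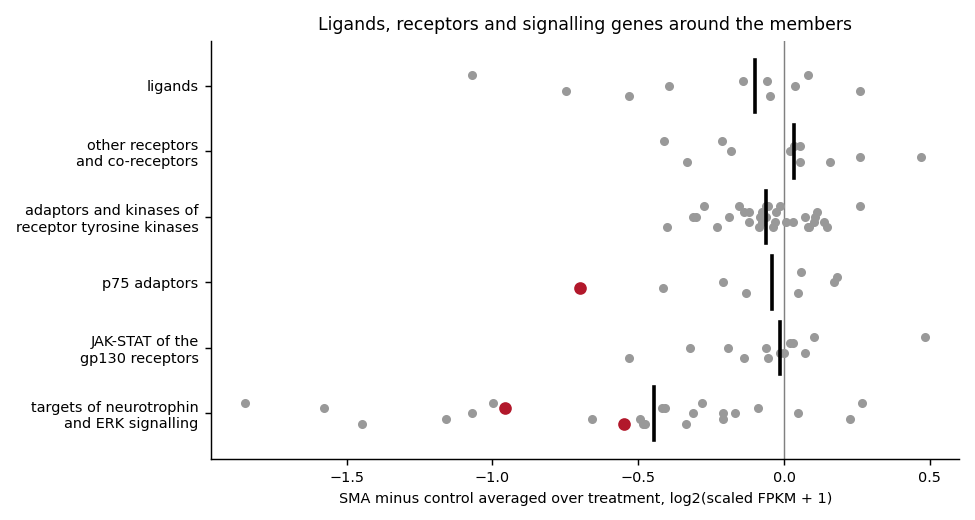
Averaged SMA minus control difference of each tested gene of the 6 lists on the log2(scaled FPKM + 1) scale, with a bar at the median of each list. Red points are Bex1 among the p75 adaptors and Vgf and Dusp4 among the targets, and the median of the targets is at -0.45.

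Markers of other cell types differed between genotypes and libraries. In the averaged comparison, 2.79% of all genes were called higher and 1.63% lower in SMA, and most marker calls were lost once paired libraries were not counted as independent. Of 12 astroglial markers 11 were tested, 10 had a positive averaged difference, 6 were called higher in SMA by limma, and the median difference was 0.98. With pairs as a random effect 1 of the 6 was still called, the potassium channel gene Kcnj10 (limma adjusted p = 0.0327), and with 1 mean per pair 0 were. Their summed level was 375 to 1099.5 FPKM in SMA and 306 to 412 FPKM in control libraries. All 9 neural progenitor markers were tested, and 5 were called higher in SMA, 0 of them with pairs as a random effect (limma adjusted p 0.0526 to 0.112). Of these 9 markers, 8 had a positive averaged difference, and the median difference was 0.72. Their sum overlapped, at 2144 to 3501 FPKM in SMA and 1971 to 3439 FPKM in control libraries. Of 7 oligodendrocyte markers 4 were tested, 2 in each direction, and 1, Olig1, was called higher in SMA, but not with pairs as a random effect (limma adjusted p = 0.0526). Their sum was 14.7 to 67.4 FPKM in SMA and 10.1 to 16.0 FPKM in control libraries. Of the pan-neuronal markers 0 were called, with sums of 637 to 951 FPKM in SMA and 752 to 1181 FPKM in control libraries. Interneuron markers summed to 134 to 212 FPKM in SMA and 182 to 314 FPKM in control libraries, and 1 of 8, the glycine transporter gene Slc6a5, was called lower in SMA, but not with pairs as a random effect (limma adjusted p = 0.0576). Of the motoneuron list 2 were tested, Prph at 0.02 and Chodl at -1.08, which was called lower in SMA, but not with pairs as a random effect (limma adjusted p = 0.0689). Sensory neuron, Schwann cell and neural crest, endothelial and macrophage markers summed to at most 10.5 FPKM in any library. Their part in the results on the receptors was not tested.

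Beside these sums, the receptors varied as follows. Ntrk2 and Lifr were lowest among SMA libraries in library 2 under both conditions. That library number also held the lowest astroglial sum of each SMA group, 375 FPKM against 733 and 902 FPKM with R-Roscovitine and 532 FPKM against 705 and 1099.5 FPKM untreated. SMA library 1, with the highest astroglial sum, was not the highest for Ntrk2 or Lifr. In control libraries the match was not kept throughout. Untreated control library 2 had the lowest astroglial sum, 306 FPKM, with the lowest Ntrk2, 19.0 FPKM, but the highest Lifr, 5.12 FPKM. With R-Roscovitine, control library 1 had the lowest sum, 318 FPKM, and the highest Ntrk2, 29.0 FPKM. Its Lifr of 4.02 FPKM lay between those of the other libraries. The 2 values of Ngfr above 4 FPKM and the 2 highest values of Il6st were in control library 2. Fibroblast markers, of which 4 of 7 were tested, 2 in each direction, and 0 called, summed there to 89.8 FPKM untreated and 90.8 FPKM treated. Elsewhere their sum was 12.3 to 41.7 FPKM. SMA library 1 had the highest fibroblast sum of each SMA group, 34.4 FPKM with R-Roscovitine and 41.7 FPKM untreated. It had the highest Ngfr of each SMA group but the lowest Il6st, 25.1 FPKM with R-Roscovitine and 31.1 FPKM untreated. Without control library 2 in both treatments, the averaged Ngfr difference was -0.09 and the averaged Il6st difference 0.05. Whether fibroblasts had a part in these values was not tested. For Gfra2, control library 1 was highest in each control group, and it also had the highest neuronal sums, 1181 FPKM with R-Roscovitine and 1120.5 FPKM untreated. In SMA cultures this was not so. SMA library 1 had the highest neuronal sum of each group, 951 FPKM with R-Roscovitine and 766 FPKM untreated, whereas its Gfra2 level was below that of library 2 with R-Roscovitine and the lowest of the untreated group.

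Among themselves the 10 genes were compared across the 12 libraries by Pearson's r of log2 values, as a description over libraries that share genotype and number. These r include the genotype difference, no grouping was tested, and the pairs named first are those with the highest and lowest r. Ntrk2 ran with Ntrk3 (r = 0.79) and Lifr (0.76), and Ngfr with Ret (0.79). Gfra2 ran opposite to Lifr (-0.78), and Gfra1 opposite to Il6st (-0.81). Other pairs came close, such as Ntrk3 with Ret (-0.74) and Ngfr (-0.71), while Ntrk3 with Lifr had 0.54. The genes named next were picked as the best correlated of all tested genes, so their r are high in part by that choice. Among all other tested genes, those most like Ntrk2 were Adcyap1r1 (0.97), Ndrg2 (0.97) and Neo1 (0.96), and those most like Gfra2 were Slc6a17 (0.98), Synj1 (0.97) and Dock3 (0.97). Lifr was closest to Dcaf8 (0.97), Tmem100 and Gm12222 (0.96 each), Ntrk3 to Dip2b (0.94), Msi1 and Igdcc3 (0.92 each), and Ret to Pcp4l1 (0.98), Rnf150 (0.96) and Camkv (0.94). Ngfr was closest to Ier2 (0.98), Junb (0.98) and H2-D1 (0.97), and Il6st to Abcb1b, Myof and Col8a1 (0.96 each). For Gfra1 they were C530008M17Rik (0.92), Cnih3 and Gm11223 (0.91 each), for Cntfr Cux1 (0.92), Gm16379 (0.91) and Zc3h7b (0.90), and for Bdnf Nck1 (0.91), Eed (0.90) and Tpd52-ps (0.85). Bdnf had the lowest such values.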

How the data were processed

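A Nucleospin kit was used for RNA extraction and a Lexogen mRNA-Seq V2 kit for libraries, per the labels' protocols. Tools named are FastQC 0.10.1, Trim Galore 0.4.0 and Cufflinks 2.2.1 with GRCm38, per the submitters' processing notes, with no aligner settings or strand given in the sources used here. Values are FPKM for each gene as deposited by the authors, normalised for transcript length and depth, without counts, so no count model was used. The 12 tables hold 39196 entries for 39174 identifiers, and values of the 19 identifiers on several lines were summed. All 120 values of the 10 genes had the status OK, with Cufflinks intervals of 3.85% to 19.7% to each side. Low values fell on whole multiples of a smallest step in 35.8% to 39.2% of cases, so the depth of 19.5 to 28.7 M reads is approximate, and intervals cover counting and assignment error only.

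FPKM were scaled by median-of-ratios factors and transformed to log2(FPKM + 1), which understates changes of low genes. Genes at 1 FPKM or more in at least 3 libraries were tested, 15114 in all. Levels given in FPKM are unscaled. The test was limma 3.58.1 (trend, two-sided) in R 4.3.3 over 12 libraries and 4 group means, with Benjamini-Hochberg adjustment over all tested genes and a threshold of 0.05. It was checked on simulated data. Python 3.11.15 and matplotlib 3.10.9 handled tables and figures.

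Same-numbered treated and untreated libraries of a genotype deviated together in all 6 pairs (r 0.222 to 0.574), so the numbers pair libraries for the treatment comparisons, and a block on these pairs changed no call there. Across genotypes the numbers were not taken as pairs. Alternatives were other scalings, a pseudocount of 0.1, no filter, blocks, pairs as a random effect or mean, library weights, leaving out libraries and, added after seeing the data, leaving out both libraries of a number, leaving out 132 small RNA genes and the block on pairs. The 10 genes, lists and markers were chosen with earlier results of these data known. Named genes were the 10 genes, Smn1, list genes that were called, otherwise the 2 highest and 2 lowest of a list by averaged genotype difference, and the 3 genes best correlated with each of the 10. Other genes and values named for reference (Stat3, Gfra3, Chat, Mnx1 and untested ligands) were added after their values were seen. Some genes that this rule names are not reported here. Coordinates are those of the files, with 1 added to the start.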

Additional observations from a re-analysis of the deposited data

Results flagged for a closer look

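Ntrk3 and Ngfr were flagged because their treated minus untreated differences had opposite signs in the 2 genotypes in every pair of libraries. The share of all tested genes with this pattern is not given here, so it is not read as particular to these 2 genes. In SMA pair 1, Ntrk3 was nearly equal, at 8.93 FPKM treated and 8.94 FPKM untreated. For Ntrk3 the treated minus untreated differences were -0.0019, -0.09 and -0.18 in SMA pairs 1 to 3 and 0.09, 0.42 and 0.05 in control pairs (log2). The difference between these responses was tested, and at -0.28 ± 0.40 (SE; limma adjusted p = 1, and 0.815 with a block on pairs) it did not pass. Its sign turned to 0.04 without untreated SMA library 3. For Ngfr the differences were 0.14, 0.16 and 0.10 in SMA pairs and -0.33, -0.13 and -0.13 in control pairs. Their difference of 0.33 ± 0.45 did not pass either (limma adjusted p = 1, and 0.815 with the block), and it was 0.02 without untreated control library 2. Over all alternatives the adjusted p of the Ngfr and Ntrk3 interactions stayed above 0.8.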

How the results depend on the processing

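Of 1600 member values under alternatives, 1468 kept their direction and their side of the threshold. The largest difference that changed sign was 0.29 as reported. The lack of any call for R-Roscovitine in the 10 genes held under all alternatives.

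Counts of called genes moved far. For the untreated genotype comparison, which called 1 gene, there were 2 with a pseudocount of 0.1, 301 with a replicate block (1 of the 10) and 354 with library weights (1 of the 10), and 1 to 141 without libraries. The treated comparison called 220 with the block, 12 with weights and 1 to 237 without libraries. The interaction called 1 without a filter and 0 to 1 without libraries. The averaged comparison, with 668 calls and 1 of the 10, called 1 and 0 without a filter, 1743 and 3 with the block, 3 and 0 with pairs as a random effect, 1953 and 4 with weights, and 1 and 0 with 1 mean per pair. Without libraries it called 1 to 1344 genes and 0 to 3 of the 10. The replicate block brought Gfra2 untreated to an adjusted p of 0.0439. Same-numbered libraries of different genotype had r of -0.0535 to 0.280 under the same treatment (median 0.0948) and 0.0512 to 0.307 where treatment differed too (median 0.165). For different numbers the medians were -0.0249 and -0.0803. Deviations were taken from group means, which ties the r of different numbers to those of equal numbers, so they are no separate evidence. Not all pairs exceeded 0.1 and not every library correlated best with its own number, so a pairing across genotypes was not assumed, and the positive medians are a hint from the data only. The cause of these moves was not tested.

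Signs turned without scaling for Bdnf untreated (-0.0079) and the Gfra2 response in controls (-0.015), and for Gfra1 treated with quantile normalization (0.0070) and the smaller pseudocount (0.0042). With library weights they turned for Gfra1 untreated (0.18), treated (0.080), averaged (0.13) and in the interaction (-0.10), for Cntfr untreated (0.16), for the responses in controls of Ret (-0.18), Gfra2 (-0.015) and Cntfr (0.10), and for the interactions of Lifr (0.18) and Il6st (0.15).

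Leaving out libraries gave these ranges where a sign turned. Untreated genotype: Gfra1 -0.27 to 0.15, Cntfr -0.42 to 0.23, Il6st -0.39 to 0.11, Bdnf -0.039 to 0.11. Treated genotype: Ngfr -0.48 to 0.092, Gfra1 -0.23 to 0.23. Response in SMA: Ntrk2 -0.19 to 0.32, Ntrk3 -0.37 to 0.23, Ngfr -0.013 to 0.28, Cntfr -0.036 to 0.62, Lifr -0.34 to 0.14. Response in controls: Ntrk2 -0.011 to 0.23, Ngfr -0.54 to 0.11, Ret -0.11 to 0.29, Gfra1 -0.070 to 0.40, Gfra2 -0.086 to 0.12, Cntfr -0.24 to 0.13, Lifr -0.12 to 0.11, Il6st -0.31 to 0.19. Interaction: Ntrk2 -0.29 to 0.21, Ntrk3 -0.56 to 0.043, Ret -0.088 to 0.34, Gfra1 -0.20 to 0.27, Lifr -0.33 to 0.15, Il6st -0.32 to 0.18. Averaged genotype: Gfra1 -0.25 to 0.19, Cntfr -0.15 to 0.32, Il6st -0.39 to 0.054. With 3 libraries a group, standard errors of 0.14 to 0.31 limited what could be called.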

Other observations

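The balance of the LIF receptor subunits differed between libraries. The ratio of Lifr to Il6st FPKM was 0.225, 0.157 and 0.233 in untreated SMA libraries 1 to 3, against 0.146, 0.102 and 0.101 in untreated control libraries. With R-Roscovitine it was 0.266, 0.118 and 0.250 in SMA and 0.146, 0.106 and 0.104 in control libraries. The untreated groups did not overlap, with nearest values of 0.157 in SMA and 0.146 in control libraries, and treated SMA library 2 lay within the control range. Lifr alone did not overlap in the untreated groups either, a state shared by 7.83% of all genes. The ratio of Gfra1 to Gfra2, the GDNF and neurturin receptors, was 0.664 ± 0.237 in untreated SMA and 0.413 ± 0.127 in untreated control libraries (SD, n = 3 each), with overlapping groups, and rests on a Gfra1 level that may include antisense reads. The ratio of Ntrk2 to Ntrk3 was 2.75 ± 0.709 in untreated SMA and 2.75 ± 0.353 in untreated control libraries. No test was run on these ratios, which are a selection of those computed.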
